A study of Mus musculus with 4 samples.

Results

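Ligands and receptors of the TNF family were followed by cell class through single-cell RNA-sequencing (scRNAseq) libraries of popliteal lymphatic vessels and superficial saphenous veins. The 10 genes were the ligands Tnf, Ltb, Tnfsf11 and Tnfsf12 and the receptors Tnfrsf1a, Tnfrsf1b, Ltbr, Tnfrsf11a, Tnfrsf11b and Tnfrsf12a, chosen by name out of 30406 genes shared by all 4 libraries, and each of them was listed in every library. The TNF-Tg library came from male transgenic mice with erosive arthritis, which carry a human TNF transgene, and the WT library from male wild-type mice. Both were made at an age of 9 months and sorted for live cells of high forward or side scatter. The tdT1 and tdT2 libraries held tdTomato+ cells of Cspg4-Cre;tdTomato mice, in which Cspg4, a gene of mural cells, drives the Cre that turns on the reporter. The reporter mice, males and females, are not labelled as carrying the TNF transgene. All mice were on a C57BL/6J background, and every library pooled 3 mice. Human TNF was a listed gene in none of the libraries, so the product of the transgene was not measured, and every Tnf value below was counted under the mouse gene. Whether reads of the transgene could be counted there was not tested.

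TNF family ligands are trimers that are made on the cell surface and in part released, and they signal by clustering receptors of the same superfamily. Tnf binds Tnfrsf1a (TNFR1), which most cell types carry, and Tnfrsf1b (TNFR2), which is found mainly on leukocytes and endothelium. Lymphotoxin beta (Ltb) holds lymphotoxin at the cell surface for its receptor Ltbr on stromal and myeloid cells, a pair known for its part in lymphoid tissue. RANKL (Tnfsf11) drives osteoclast formation through RANK (Tnfrsf11a) and is trapped by the decoy receptor osteoprotegerin (Tnfrsf11b), and TWEAK (Tnfsf12) acts through Fn14 (Tnfrsf12a) on stromal cells.

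The ligand genes Tnf and Ltb are neighbours in the mouse genome (GRCm38), where Ltb lies at chr17:35194439-35196320 on the plus strand and Tnf at chr17:35199381-35202007 on the minus strand, with 3060 bases between them. The receptor genes Ltbr, at chr6:125306571-125313885 on the minus strand, and Tnfrsf1a, at chr6:125349362-125362484 on the plus strand, lie 35476 bases apart, with Scnn1a between them. The other genes lie apart, Tnfrsf1b at chr4:145213463-145246870 and Tnfsf11 at chr14:78277445-78308043, both on the minus strand. Tnfrsf11b lies at chr15:54250619-54278484 (minus), Tnfrsf11a at chr1:105780718-105847981 (plus), Tnfsf12 at chr11:69686250-69695849 (minus) and Tnfrsf12a at chr17:23675445-23677468 (minus). The bases that lead into Tnf and Ltb are shown because these were the ligands that separated the TNF-Tg from the WT library in neutrophil-like cells. They are the part before the annotated exons of the promoter windows of RefSeq (GRCm38.p6), chr17:35202008-35202257 for Tnf and chr17:35194257-35194438 for Ltb, each written 5′ to 3′ on the strand of its gene. Capitals mark matches on either strand to 3 motifs, the TATA box TATAAA, the Ets-type motif GAGGAA and the NF-kB consensus. The shorter Ets core GGAA was not searched and further copies of it are unmarked.
Tnf: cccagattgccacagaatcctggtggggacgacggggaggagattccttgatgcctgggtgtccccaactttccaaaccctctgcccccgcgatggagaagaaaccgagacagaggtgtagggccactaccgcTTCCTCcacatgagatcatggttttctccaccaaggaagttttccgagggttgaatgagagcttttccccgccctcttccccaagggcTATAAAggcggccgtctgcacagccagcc
Ltb: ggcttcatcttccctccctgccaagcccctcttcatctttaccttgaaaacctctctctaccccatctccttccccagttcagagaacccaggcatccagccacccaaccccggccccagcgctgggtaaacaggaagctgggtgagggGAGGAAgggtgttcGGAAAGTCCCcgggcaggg
The Tnf window held 1 TATA box that starts 29 bases before the end of the window, a motif found in 12.4% of 32851 promoter windows of the same length, and 1 GAGGAA, found in 23.3%. The NF-kB consensus did not match in this window and matched in 7.25% of all windows. The Ltb window of 182 bases held 1 NF-kB match that starts 19 bases before its end, found in 5.11% of windows of that length, and 1 GAGGAA, found in 17.4%. It held no TATA box, against 8.45% of windows. A match is a description of the letters and not of binding.

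The WT library held 5488 cells with a median of 12660 UMIs (unique molecular identifiers, each a counted RNA molecule), the TNF-Tg library 3391 cells with 10605, tdT1 1504 cells with 6393.5 and tdT2 454 cells with 4932.5. Pairs of libraries shared between 0 and 5 cell barcodes. The tdT1 library stood apart, since 516 of its cells had over 10% mitochondrial UMIs, its matrix was made with another version of Cell Ranger and against another gene list, and it was sorted with another nozzle and sequenced on another instrument than the rest. Cells were clustered without the 10 genes and named from marker genes, so each name ends in "-like". LMC-like (lymphatic muscle) and VSMC-like (vascular smooth muscle) cells carry these names from marker lists that differ from the genes in the study's text. The LMC list held Myoc, Pi16, Fndc1, Dpt, Adamts5, Plpp3, Mfap5 and Efemp1, whereas the text tells LMCs from VSMCs by Ackr3 and Vegfd. The VSMC list shares Mgp and Bgn with the text. The study does not fully exclude that the cells it names so are myofibroblasts of surrounding tissue. The classical contractile list (Acta2, Myh11, Tagln, Cnn1, Des, Rgs5 and Notch3) summed to 9.58 to 41.6 CPM (on a counts-per-million scale, the UMIs of a gene over all UMIs of the class) over the 4 libraries in LMC-like cells and to 2.72 to 9.85 CPM in VSMC-like cells. Myh11 was at 0 in the WT and TNF-Tg LMC-like cells and Cnn1 at 0 in the VSMC-like cells of every library. In the ILC or NK cell-like class Gata3, Il1rl1 and Il7r were at 717, 650 and 935 CPM. Of its NK cell markers Ncr1 and Eomes were at 0, and Klrb1c was at 2.18 CPM, as in other cells. There was 1 library per condition, so no test between TNF-Tg and WT was possible, condition and library cannot be told apart, and the 95% intervals given beside CPM values and ratios cover counting error only. Levels were compared within a gene and not between genes, because 3′ UMI counts capture genes with unequal efficiency.

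The genes differed in the classes that held them. In both the WT and TNF-Tg libraries Ltb was found in lymphocyte-like and neutrophil-like cells, and Tnfsf11 in gamma-delta T cell-like and ILC or NK cell-like cells. Tnf was found in both in neutrophil-, macrophage-, Ear2 phagocyte-, Cd209a dendritic cell- and gamma-delta T cell-like cells. In inflammatory monocyte-like cells Tnf had 3 UMIs in WT and 66 in TNF-Tg. Patrolling monocyte-like and basophil-like cells of TNF-Tg, classes with under 20 cells in WT, held Ltb and Tnf too. The receptors Tnfrsf1a and Ltbr were found in stromal and myeloid classes alike, Tnfrsf1b mainly in macrophage-, monocyte- and neutrophil-like cells, Tnfrsf11a mainly in macrophage-like cells, and Tnfrsf12a mainly in LMC-like and VSMC-like cells. The library with the highest Tnfrsf12a level outside the stroma was tdT1, with 52.9 CPM from 14 UMIs in Cd209a dendritic cell-like cells. Among 70 pairs of gene and class with at least 20 UMIs and at least 20 cells in each library, 7 were over 2-fold higher in TNF-Tg than in WT and 8 over 2-fold lower. Over all 100629 measured pairs of gene and class, 5.35% were over 2-fold higher and 9.91% over 2-fold lower. None of the 15 pairs lay in LMC-like or VSMC-like cells.

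**Figure D1:**
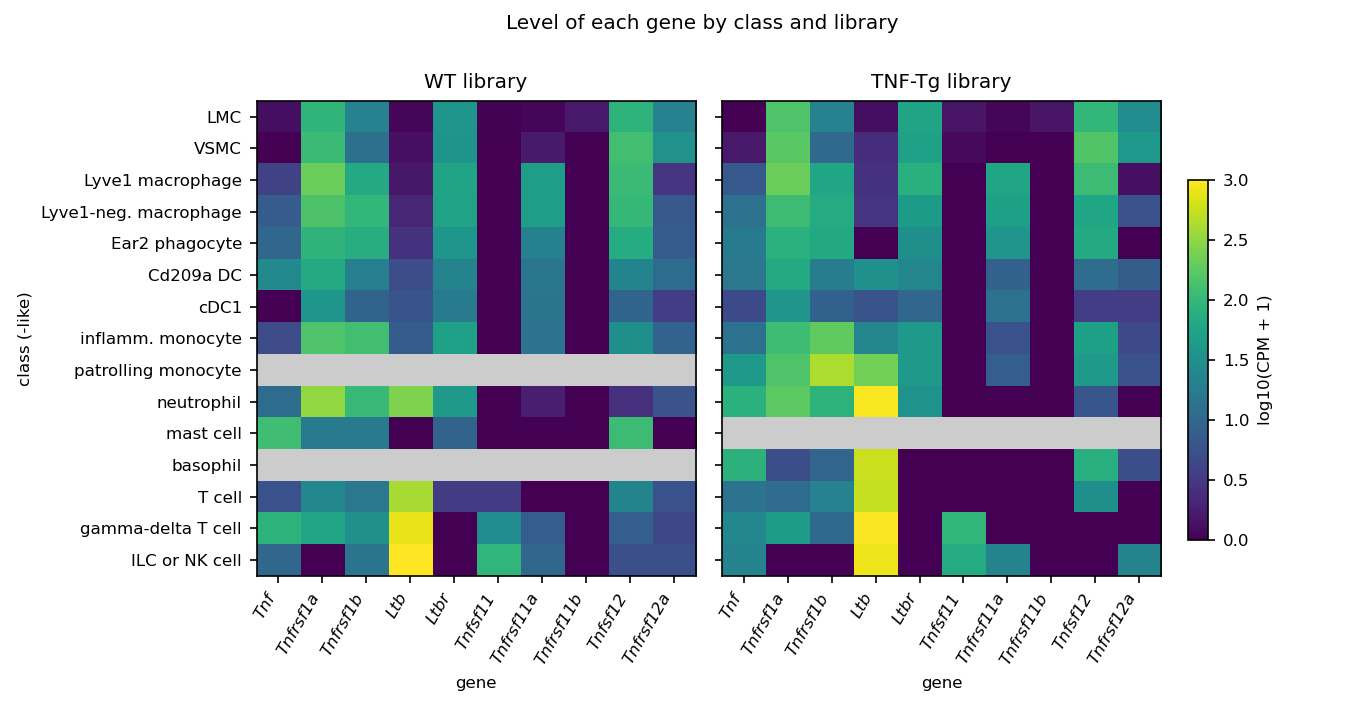
Level of the 10 genes (columns) in 15 classes (rows) of the WT and TNF-Tg libraries as log10(CPM + 1), with classes under 20 cells in grey. Ltb is bright in the lymphocyte-like and neutrophil-like rows and dark in LMC and VSMC, while Tnfrsf12a is bright in LMC and VSMC. Tnfsf12 is bright in LMC and VSMC and in the macrophage-like rows as well. Colours should be read down a column, since levels of different genes are not comparable.

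Tnf, the ligand after which the family is named, was higher in the TNF-Tg library in neutrophil-like cells. It was at 10.4 CPM (95% interval 5.52 to 17.7, 13 UMIs in 342 cells) in WT and at 81.4 CPM (62.2 to 105, 61 UMIs in 226 cells) in TNF-Tg. The log2 ratio was 2.97 with an interval of 2.09 to 3.96, and 3.51% against 18.1% of the cells held a Tnf UMI. At 3000 UMIs per cell the shares were 2.61% of 230 cells and 14.4% of 118 cells, so the difference stood at equal depth. Free RNA was not measured, and its part in these levels was not tested. Among LMC-like cells 0.433% in WT and 0% in TNF-Tg held a Tnf UMI, at median depths of 16183.5 and 12373. For 0 of 515 cells a floor of 3 is a share of 0.583%, and the 95% interval reaches 0.714%. The neutrophil-like cells with a Tnf UMI held 0 UMIs of the lymphoid marker lists in both libraries. In this class 7.91% of all measured genes were over 2-fold higher in TNF-Tg and 8.65% over 2-fold lower.

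Tnf was also higher in TNF-Tg than in WT in other phagocytes, with smaller ratios. In the macrophage-like and inflammatory monocyte-like classes WT had the lowest level of the 4 libraries. In tdT1 and tdT2, Lyve1-negative macrophage-like cells had 213 CPM (36 UMIs in 16 cells) and 33.4 CPM (2 UMIs in 14 cells). Lyve1 macrophage-like cells had 15.1 and 12.5 CPM there, from 2 UMIs each. Inflammatory monocyte-like cells had 31.5 and 11.1 CPM, from 4 and 2 UMIs. Lyve1-negative macrophage-like cells had 6.44 CPM in the WT library and 12.4 in TNF-Tg (log2 ratio 0.95, interval 0.34 to 1.56). Lyve1 macrophage-like cells had 2.93 and 5.64 CPM (0.94, 0.03 to 1.79). At 3000 UMIs the shares with a Tnf UMI were 1.77% and 4.36% of Lyve1-negative macrophage-like cells, with intervals that overlapped. Those of Lyve1 macrophage-like cells were 1.10% and 2.04%, and these intervals overlapped too. Inflammatory monocyte-like cells had 3.89 CPM from 3 UMIs in 69 WT cells and 12.05 CPM from 66 UMIs in 503 TNF-Tg cells. Their log2 ratio was 1.63 with an interval of 0.02 to 3.94. With cells thinned to 3000 UMIs, 0 of 68 WT and 25 of 494 TNF-Tg cells held a Tnf UMI. The thinned log2 value of 0.25 is therefore a lower bound, with the WT count of 0 set to 3 UMIs. Patrolling monocyte-like cells numbered 188 in TNF-Tg and 6 in WT, so the class has no ratio, and their Tnf level in TNF-Tg was 40.9 CPM.

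Other cells showed the opposite order of libraries. Gamma-delta T cell-like cells, lymphocytes of barrier tissues that make cytokines quickly, had 87.1 CPM in WT (25 UMIs in 32 cells) and 24.2 CPM in TNF-Tg (5 UMIs in 34 cells), a log2 ratio of -1.85 (-3.59 to -0.44). A Tnf UMI was found in 43.8% and 11.8% of these cells, and in 19.4% and 9.09% at 3000 UMIs, with intervals that overlapped. Cd209a dendritic cell-like cells had 26.1 and 14.3 CPM (-0.87, -1.47 to -0.27). The share of these dendritic cells with a UMI was 4.76% in WT and 3.70% in TNF-Tg at 3000 UMIs, with intervals that overlapped. Cycling cell-like cells had 13.7 and 29.9 CPM, but 20 of their 22 TNF-Tg UMIs came from 1 cell, and without the highest cell of each library the levels were 11.5 and 2.82 CPM.

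In the order of Tnf levels in WT classes of at least 20 cells, mast cell-like cells (120 CPM, 67.2 to 198) and gamma-delta T cell-like cells (87.1, 56.3 to 129) came first with overlapping intervals, and Cd209a dendritic cell-like cells (26.1, 19.8 to 33.8) came below both. Mast cells store and release Tnf, and 12 of 100 mast cell-like cells held a UMI at a median depth of 991.5. Among classes of at least 20 cells in TNF-Tg, basophil-like cells (84.1 CPM, 51.4 to 130, with 20 UMIs in 5 of 61 cells) and neutrophil-like cells (81.4) came first with overlapping intervals, followed by patrolling monocyte-like cells (40.9, 31.2 to 52.7), whose interval overlapped that of basophil-like but not that of neutrophil-like cells. The basophil-like class had 5 cells in WT and the mast cell-like class 17 in TNF-Tg, so neither has a ratio. Those 17 cells held 10 Tnf UMIs, at 377 CPM (181 to 694), above the intervals of all the classes just named for TNF-Tg.

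**Figure D2:**
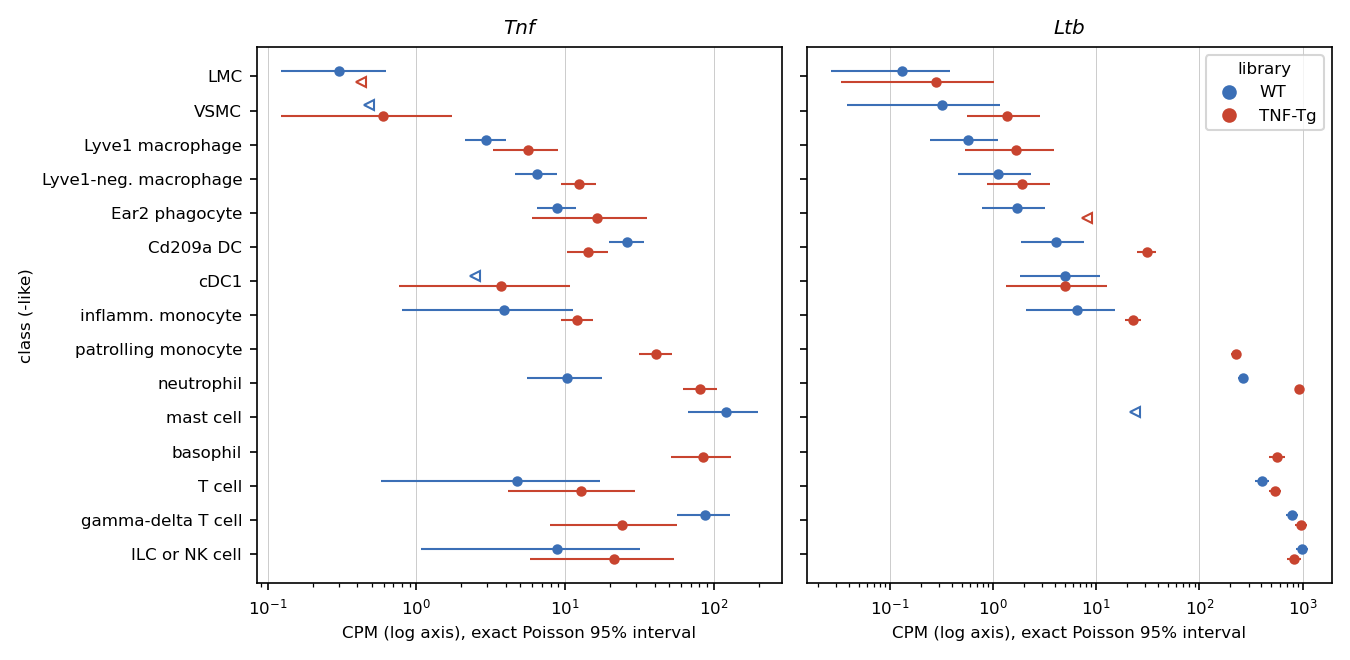
Tnf and Ltb in CPM (log axis) by class, in WT (blue) and TNF-Tg (red), with exact Poisson 95% intervals and open triangles at the limit of 3 UMIs where none was counted. In the neutrophil row both ligands lie to the right in TNF-Tg, at 81.4 against 10.4 CPM for Tnf and at 927 against 262 CPM for Ltb, and in the gamma-delta T cell row Tnf lies to the left, at 24.2 against 87.1 CPM.

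Ltb, the membrane anchor of lymphotoxin, was also higher in TNF-Tg neutrophil-like cells. Its level was 262 CPM (235 to 292, 329 UMIs) in WT and 927 CPM (859 to 999, 695 UMIs) in TNF-Tg, a log2 ratio of 1.82 (1.63 to 2.02). Among cells of this class 52.6% held an Ltb UMI in WT and 74.8% in TNF-Tg, and in 48.7% and 78.0% at 3000 UMIs. The tdT2 library held 30 neutrophil-like cells, and their level of 671 CPM (493 to 892) lay between WT and TNF-Tg, with an interval that overlapped TNF-Tg and not WT. Neutrophils are not the best known source of Ltb, so lymphoid markers were looked up in the same cells. The neutrophil markers summed to 260389 CPM in WT and 268885 in TNF-Tg, and T cell markers to 10.4 and 5.34 CPM, with Cd3e, Trac and Cd28 at 0 in both. Of the neutrophil-like cells with an Ltb UMI, 6.67% of 180 in WT and 2.37% of 169 in TNF-Tg held any lymphoid marker, against 3.09% and 5.26% of the cells without one.

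Ltb was higher in TNF-Tg in Cd209a dendritic cell-like and inflammatory monocyte-like cells as well. The dendritic cell-like cells had 4.05 CPM (9 UMIs) in WT and 31.0 CPM (93 UMIs) in TNF-Tg, a log2 ratio of 2.93 (1.95 to 4.11), which was 1.82 with the WT and TNF-Tg libraries clustered alone. In TNF-Tg, the 44 of these cells with an Ltb UMI carried 217 CPM of lymphoid markers and the 200 without carried 52.3 CPM, while 31.8% and 34.5% of them held any such marker. All 6 T cell markers were detected in the class in TNF-Tg, at a summed 28.3 CPM, and 2 in WT, at 0.900 CPM. The part of these markers in the Ltb level was not tested. Inflammatory monocyte-like cells had 6.49 and 22.6 CPM (1.80, 0.54 to 3.45). With cells thinned to 3000 UMIs, 0 of 68 WT and 27 of 494 TNF-Tg cells held an Ltb UMI. The thinned log2 value of 0.55 is therefore a lower bound, with the WT count of 0 set to 3 UMIs. The TNF-Tg patrolling monocyte-like cells had 227 CPM (203 to 253), with a UMI in 67.0% of 188 cells, and the T cell markers in them summed to 0.682 CPM. Basophil-like cells of TNF-Tg had 568 CPM (476 to 672), with a UMI in 53 of 61 cells. They numbered 5 in WT, so this class has no ratio.

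Lymphocyte-like cells had high Ltb in both libraries. ILC or NK cell-like cells had 995 CPM (869 to 1133) in WT and 828 CPM (703 to 969) in TNF-Tg, gamma-delta T cell-like cells 794 and 968 CPM, and T cell-like cells 403 and 542 CPM. Their log2 ratios of -0.26, 0.29 and 0.43 were below 1 in size, and the interval of the first, -0.57 to 0.04, included 0. The order in WT ran from ILC or NK to gamma-delta T, T and neutrophil-like cells (262 CPM), and only the intervals of the first pair overlapped. In TNF-Tg the neutrophil-like level (927 CPM) lay within the intervals of the gamma-delta T and ILC or NK cell-like levels. LMC-like cells had 0.130 and 0.280 CPM and VSMC-like cells 0.320 and 1.38 CPM, with a UMI in 0.144% to 1.24% of the cells.

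Tnfsf11 (RANKL), the osteoclast-forming ligand, was rare, with 35 UMIs in WT, 40 in TNF-Tg, and 29 and 8 in the tdT1 and tdT2 libraries. Of the WT UMIs 21 were in ILC or NK cell-like and 8 in gamma-delta T cell-like cells, and of the TNF-Tg UMIs 13 and 20. Gamma-delta T cell-like cells had 27.9 CPM (8 UMIs) in WT and 96.8 CPM (20 UMIs) in TNF-Tg. The log2 ratio was 1.80 (0.55 to 3.19), so Tnfsf11 was higher and Tnf lower in TNF-Tg than in WT within this class. In thinned cells the shares with a Tnfsf11 UMI were 6.45% in WT and 27.3% in TNF-Tg, with intervals that overlapped. The class had 178 CPM in tdT1 (3 UMIs in 9 cells) and 106 CPM in tdT2 (7 UMIs in 11 cells). WT thus had the lowest level of all libraries, and the reporter mice are not labelled as transgenic. In ILC or NK cell-like cells the levels were 92.8 and 69.0 CPM, with a log2 ratio of -0.43 (-1.55 to 0.64). LMC-like cells held 1 UMI in WT and 3 in TNF-Tg.

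Tnfsf12 (TWEAK) was found in stromal and macrophage-like cells alike, and was the only one of the 4 ligands above 2 CPM in LMC-like or VSMC-like cells. LMC-like cells had 85.3 CPM in WT against 96.2 in TNF-Tg, and VSMC-like cells 124 against 152. The log2 ratios were 0.17 (0.04 to 0.30) and 0.30 (0.16 to 0.45), where the median of all genes was -0.03 in LMC-like and -0.21 in VSMC-like cells. Lyve1 macrophage-like cells had 109 and 114 CPM. Lyve1-negative macrophage-like cells had 97.5 CPM (89.9 to 106) in WT and 57.7 CPM (51.0 to 64.9) in TNF-Tg, a log2 ratio of -0.76 (-0.97 to -0.55) against a median of -0.17 for all genes. The ratio was -0.29 with cells thinned to 3000 UMIs. Inflammatory monocyte-like cells had 29.9 and 49.7 CPM (0.73, 0.12 to 1.42), and Cd209a dendritic cell-like cells 21.6 and 10.7 CPM (-1.02, -1.71 to -0.35), past 2-fold under 3 of 6 other settings. In neutrophil-like cells Tnfsf12 had 2 and 4 UMIs. Tnfsf12 shares 731 of its 1515 exon bases with Tnfsfm13, which only tdT1 lists, but none of the last 500 bases, from which 3′ libraries are read.

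Tnfrsf1a, the TNF receptor that most cells carry, was at 90.4 CPM (86.5 to 94.3) in WT LMC-like cells and at 148 CPM (139 to 157) in TNF-Tg. The log2 ratio of 0.71 (0.60 to 0.82) was 0.29 with cells thinned to 3000 UMIs, where each cell counts alike, and 0.43 with cells classed one by one. The reporter libraries had 79.1 and 91.9 CPM in LMC-like cells, near WT. VSMC-like cells had 111 CPM in WT against 168 in TNF-Tg (0.60, 0.46 to 0.75), and 111 and 120 CPM in tdT1 and tdT2. The TNF-Tg level was the highest of the 4 libraries in both classes.

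The same receptor gene was lower in TNF-Tg in neutrophil-like cells. Its level was 325 CPM (294 to 358) in WT and 175 CPM (146 to 207) in TNF-Tg, a log2 ratio of -0.90 (-1.19 to -0.61), and 271 CPM (163 to 424) in tdT2. At 3000 UMIs 60.9% of WT and 38.1% of TNF-Tg cells held a UMI. Neutrophil-like cells were the class with the highest Tnfrsf1a level in WT, followed by Lyve1 macrophage-like cells at 204 CPM (196 to 211), with intervals that did not overlap. In TNF-Tg, Lyve1 macrophage-like cells were at 207 CPM, and their log2 ratio of 0.03 had an interval of -0.10 to 0.15. Lyve1-negative macrophage-like cells had 146 and 114 CPM (-0.36, -0.51 to -0.20), and the ratio was -0.18 after median-ratio scaling. Cd209a dendritic cell-like cells had 67.5 and 67.2 CPM. T cell-like cells had 23.8 and 10.2 CPM from 10 and 4 UMIs, and ILC or NK cell-like cells had 0 UMIs in either library. The tdT1 library held 33 endothelial-like cells, in which the level was 230 CPM (188 to 280).

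Tnfrsf1b, the leukocyte TNF receptor, reached its highest level in the TNF-Tg patrolling monocyte-like cells, at 425 CPM (393 to 460). Inflammatory monocyte-like cells had 122 CPM (98.6 to 149) in WT, 182 CPM (171 to 194) in TNF-Tg and 238 CPM (172 to 320) in tdT2. The log2 ratio of TNF-Tg to WT in this class was 0.58 (0.27 to 0.90), and 0.06 with cells classed one by one. In Lyve1-negative macrophage-like cells the order was turned, with 95.1 CPM in WT against 68.4 in TNF-Tg (-0.48, -0.68 to -0.28). Lyve1 macrophage-like cells had 67.4 and 58.4 CPM and neutrophil-like cells 104 and 86.7 CPM, with intervals of the ratio that included 0. LMC-like cells had 20.6 and 20.3 CPM and VSMC-like cells 11.8 and 9.85 CPM, so neither stromal class separated the libraries by this receptor.

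Ltbr, the receptor of Ltb, was at 36.1 CPM (33.7 to 38.7) in WT and 55.8 CPM (50.4 to 61.6) in TNF-Tg LMC-like cells. The log2 ratio of 0.63 (0.45 to 0.80) was 0.33 with cells thinned to 3000 UMIs. VSMC-like cells had 34.7 and 50.6 CPM (0.54, 0.28 to 0.81). The tdT1 and tdT2 libraries had 43.7 and 30.6 CPM in LMC-like and 48.0 and 36.6 CPM in VSMC-like cells, so the tdT1 level in VSMC-like cells was close to that of TNF-Tg. Lyve1 macrophage-like cells had 56.1 and 80.2 CPM (0.52, 0.30 to 0.73), and Lyve1-negative macrophage-like cells 53.1 and 41.9 CPM (-0.34, -0.60 to -0.08). Gamma-delta T cell-like and ILC or NK cell-like cells, which had the highest Ltb levels in WT, held 0 Ltbr UMIs in both libraries.

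Tnfrsf11a (RANK), the receptor of osteoclast precursors, was found mainly in macrophage-like cells. It was at 46.0 and 56.7 CPM in Lyve1 macrophage-like cells of WT and TNF-Tg (0.30, 0.05 to 0.55) and at 46.4 and 49.5 CPM in Lyve1-negative macrophage-like cells (0.09, -0.16 to 0.35). Inflammatory monocyte-like cells had 13.0 CPM (10 UMIs) in WT and 4.75 CPM (26 UMIs) in TNF-Tg. Their log2 ratio of -1.45 (-2.55 to -0.23) was -0.12 with cells classed one by one. LMC-like cells had 3 UMIs in WT and 1 in TNF-Tg. Tnfrsf11b (osteoprotegerin), the decoy for RANKL, had 14 UMIs in WT, 3 in TNF-Tg, and 7 and 0 in the tdT1 and tdT2 libraries. All of the WT and TNF-Tg UMIs lay in LMC-like cells, at 0.607 CPM (0.332 to 1.02) and 0.421 CPM (0.0867 to 1.23), and the intervals overlapped.

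Tnfrsf12a (Fn14), the receptor of TWEAK, was at 20.4 CPM (18.6 to 22.3) in WT and 27.3 CPM (23.6 to 31.5) in TNF-Tg LMC-like cells. The log2 ratio of 0.42 (0.17 to 0.67) turned to -0.17 with cells classed one by one. VSMC-like cells had 32.2 and 38.8 CPM (0.27, -0.02 to 0.56). The tdT1 and tdT2 libraries had 27.3 and 42.1 CPM in LMC-like cells and 15.8 and 18.3 CPM in VSMC-like cells. VSMC-like cells were thus above LMC-like cells in WT and TNF-Tg and below them in the reporter libraries. In macrophage- and monocyte-like cells the gene was low, with 27 UMIs in WT and 1 in TNF-Tg in Lyve1 macrophage-like cells. That log2 ratio of -2.54 had an interval of -7.90 to 0.06.

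**Figure D3:**
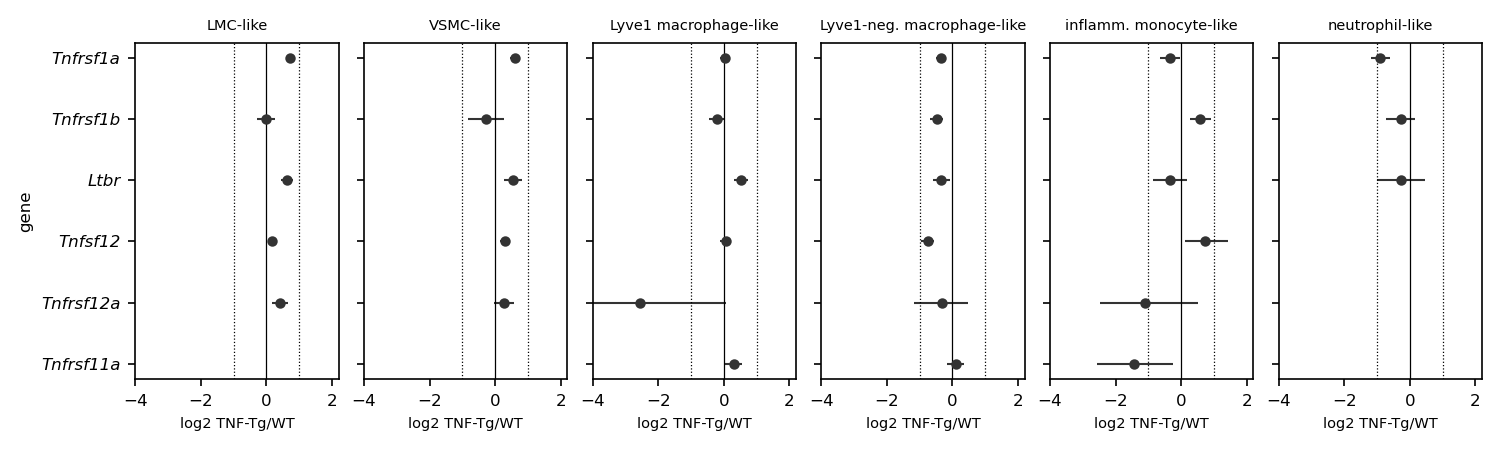
Log2 ratio of TNF-Tg to WT for Tnfsf12 and 5 receptors in 6 classes, with exact conditional 95% intervals for counting error and dotted lines at 2-fold. Genes under 20 UMIs in a class have no point, and the interval of Tnfrsf12a in Lyve1 macrophage-like cells runs past the axis. Tnfrsf1a and Ltbr lie right of 0 in LMC-like and VSMC-like cells (0.54 to 0.71) and left of 0 in Lyve1-negative macrophage-like and neutrophil-like cells.

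In LMC-like cells 0 of the 5 measured genes of the family passed 2-fold, with 4.15% of all genes over 2-fold higher and 6.01% lower. Their median log2 ratio was 0.42, against -0.03 for all genes. In VSMC-like cells 0 of 5 passed 2-fold, with backgrounds of 4.11% and 13.0%, and the median was 0.30 against -0.21. In neutrophil-like cells 2 of 5, Tnf and Ltb, were over 2-fold higher and 0 lower, with backgrounds of 7.91% and 8.65%. The 3 receptors measured there, Tnfrsf1a, Tnfrsf1b and Ltbr, had log2 ratios of -0.90, -0.27 and -0.26. In inflammatory monocyte-like cells 2 of 8 were higher (Tnf, Ltb) and 2 lower (Tnfrsf11a, Tnfrsf12a), with backgrounds of 7.25% and 6.0%. In Cd209a dendritic cell-like cells 1 of 8 was higher (Ltb) and 1 lower (Tnfsf12), with 6.8% and 7.75% of all genes. In gamma-delta T cell-like cells 1 of 4 was higher (Tnfsf11) and 1 lower (Tnf), with 2.41% and 9.57%. In cycling cell-like cells 1 of 7 was higher (Tnf) and 3 lower (Ltb, Ltbr, Tnfsf12), with 5.58% and 17.1%. In Lyve1 macrophage-like cells 0 of 7 were higher and 1 lower (Tnfrsf12a), with 5.04% and 5.98%. The remaining classes had none of the family past 2-fold. Their backgrounds were 6.62% higher and 16.0% lower in Lyve1-negative macrophage-like, 4.7% and 11.0% in Ear2 phagocyte-like, 2.91% and 5.91% in T cell-like, 6.3% and 9.64% in cDC1-like, and 2.85% and 12.3% in ILC or NK cell-like cells. In red cell-like cells 0 of the 10 genes were measured (11.5% and 17.8%).

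The classes themselves could be compared over libraries, since each library held stromal cells as well as macrophages and monocytes. The question was which of the genes separate these stromal cells from the phagocytes. UMIs were summed per library over LMC-like and VSMC-like cells and over macrophage- and monocyte-like cells and tested with edgeR (quasi-likelihood, library as a block, Benjamini-Hochberg threshold 0.01). Of 12158 genes 39.6% were called, 22.2% higher in the stromal and 17.3% higher in the phagocyte sums. Of the 8 genes of the family that passed the low-count filter 1 was higher in the stroma and 4 in the phagocytes, while Tnfsf11 and Tnfrsf11b were not past the filter. The classes were made on the same cells, so adjusted p-values describe the separation in these 4 libraries only.

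Tnfrsf12a was the gene higher in the stroma. Its stromal levels were 25.2, 30.6, 22.9 and 32.1 CPM in tdT1, tdT2, WT and TNF-Tg, and its phagocyte levels 12.7, 9.60, 3.28 and 3.40 CPM. Every stromal value lay above every phagocyte value, with a log2 difference of 2.68 ± 0.350 (SE, n = 4 libraries, edgeR adjusted p = 0.000195). Tnfrsf11a was at 0, 0, 0.239 and 0.0819 CPM in the stroma and at 44.3, 36.0, 44.8 and 30.04 CPM in the phagocytes (log2 difference -7.98, edgeR adjusted p = 7.39e-07). Tnfrsf1b was at 22.9, 30.6, 18.8 and 16.0 CPM in the stroma and at 179, 154, 78.4 and 144 CPM in the phagocytes, groups that did not overlap either (-2.51, edgeR adjusted p = 1.79e-05).

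The ligands Tnf and Ltb separated the sums as well. Tnf was at 0.305, 0, 0.239 and 0.246 CPM in the stroma and at 90.7, 14.4, 4.19 and 13.7 CPM in the phagocytes of tdT1, tdT2, WT and TNF-Tg (-5.85, edgeR adjusted p = 5.25e-05). Ltb was at 0.102, 0, 0.171 and 0.737 CPM and at 10.6, 7.20, 1.14 and 32.0 CPM (-4.70, edgeR adjusted p = 0.000191). The tdT1 and tdT2 phagocyte values of Ltb rest on few UMIs, 3 and 2 of them in patrolling monocyte-like cells. In TNF-Tg 333 Ltb UMIs lay in patrolling and 124 in inflammatory monocyte-like cells. Lyve1 and Lyve1-negative macrophage-like cells of TNF-Tg had 1.66 and 1.89 CPM, near the 1.38 CPM of VSMC-like cells. The phagocyte levels of these ligands spread widely over the libraries, and the make-up of the sums did too, since 188 of 1274 TNF-Tg phagocytes and 6 of 1695 WT phagocytes were patrolling monocyte-like. Tnfrsf1a, Ltbr and Tnfsf12 were not called. The stromal and phagocyte levels of Tnfrsf1a overlapped (84.8 to 156 and 108 to 185 CPM, edgeR adjusted p = 0.287), as did those of Ltbr (33.5 to 53.6 and 25.3 to 54.9 CPM, edgeR adjusted p = 0.769). Tnfsf12 was at 98.2, 149, 93.5 and 120 CPM in the stroma of tdT1, tdT2, WT and TNF-Tg. Its phagocyte levels were 29.5, 86.4, 102 and 64.5 CPM, so WT had the opposite order. The log2 difference was 0.85 ± 0.282 (SE, edgeR adjusted p = 0.0322). In 11 other settings (edgeR or DESeq2 adjusted p 0.00241 to 0.259) Tnfsf12 passed in 1, without the WT library.

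**Figure D4:**
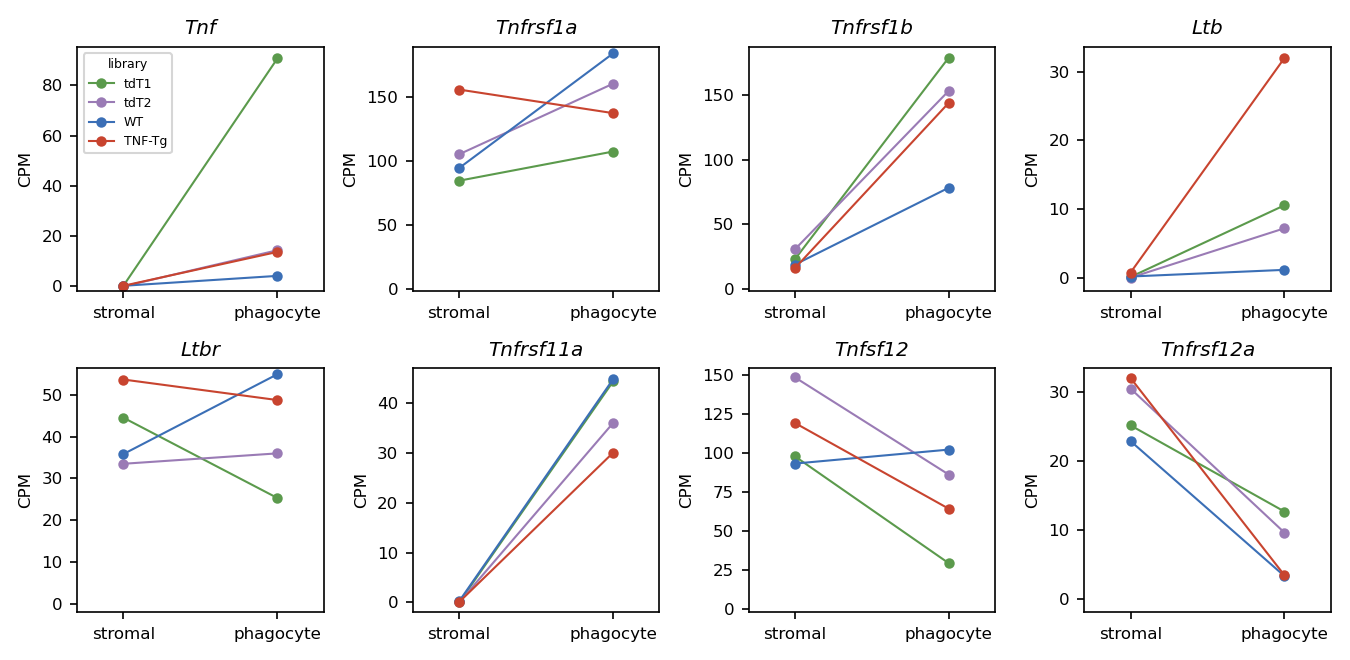
CPM of 8 genes in the stromal sums (LMC-like and VSMC-like cells) and the phagocyte sums (macrophage- and monocyte-like cells) of the 4 libraries, 1 line per library, with an axis of its own for each gene. Lines for Tnfrsf11a and Tnfrsf1b climb and those for Tnfrsf12a descend in every library, while those of Ltbr and Tnfrsf1a cross, with TNF-Tg the highest stromal value (53.6 and 156 CPM).

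Between LMC-like and VSMC-like cells 1 receptor of the family was called. Of 11053 genes 14.7% were called between LMC-like and VSMC-like sums by the same test, 7.29% higher in LMC-like and 7.36% higher in VSMC-like cells, and 5 genes of the family were tested. Tnfrsf1b was higher in LMC-like cells, at 26.0, 44.1, 20.6 and 20.3 CPM in tdT1, tdT2, WT and TNF-Tg against 8.47, 16.2, 11.8 and 9.85 CPM in VSMC-like cells. The groups did not overlap, with a log2 difference of 1.00 ± 0.174 (SE, n = 4 libraries, edgeR adjusted p = 0.000984). Tnfrsf1a was lower in LMC-like than VSMC-like cells in 4 of 4 libraries and Tnfsf12 was too, but neither passed the threshold (log2 differences -0.42 and -0.54, edgeR adjusted p = 0.0239 and 0.0135). Ltbr (-0.09) and Tnfrsf12a (-0.27) were not called either, with edgeR adjusted p of 0.644 and 0.446.

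Other genes of the pathway were read from lists that were chosen with earlier results of these data known. Their counts are therefore a description and no independent support. Of 12 NF-kB target genes that TNF is known to induce, 5 were over 2-fold higher in TNF-Tg LMC-like cells and 0 lower (median log2 ratio 0.91, against -0.03 for all genes, of which 4.15% were higher and 6.01% lower). In VSMC-like cells 5 were higher and 1 lower (0.80, against -0.21, with 4.11% and 13.0%). The chemokine Ccl2 was at 24.5 CPM in WT against 156 in TNF-Tg in LMC-like cells and at 5.60 against 120 in VSMC-like cells. The log2 ratios of Nfkbia, Tnfaip2 and Csf1, the other targets named here, were 0.19, 0.33 and -0.26 in LMC-like cells. In VSMC-like cells they were 0.13, 0.26 and -0.55. In neutrophil-like cells 6 of 9 measured targets were higher and 1 lower (2.31, against -0.04, with 7.91% and 8.65%). In inflammatory monocyte-like cells 6 of 8 were higher and 0 lower (1.38, against -0.02, with 7.25% and 6.0%). Nfkbia, the inhibitor that NF-kB induces against itself, was at 423 CPM in WT against 2278 in TNF-Tg in neutrophil-like cells, and at 192 against 795 in inflammatory monocyte-like cells. Its log2 ratio was -0.33 in Lyve1 and -0.41 in Lyve1-negative macrophage-like cells. The log2 ratios of Tnfaip2, Ccl2 and Csf1 in neutrophil-like cells were 0.13, -0.97 and -1.41. A link between the targets and the Tnf or Ltb level of a class was not tested. In gamma-delta T cell-like cells 0 of 4 targets were higher and 3 lower (2.41% and 9.57% of all genes), with Nfkbia at 195 CPM in WT and 67.8 in TNF-Tg. In Lyve1-negative macrophage-like cells 0 of 11 were higher and 3 lower (6.62% and 16.0%).

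The other lists held fewer genes past 2-fold in the stromal classes. Of 14 other TNF family ligands 4 were measured in LMC-like cells and 0 passed 2-fold (4.15% of all genes higher and 6.01% lower). In Lyve1 macrophage-like cells 1 of 6 was higher and 3 lower (5.04% and 5.98% of all genes). Of 22 other receptors 9 were measured in LMC-like cells and 1, Tnfrsf21, was lower. In Cd209a dendritic cell-like cells 4 of 10 were higher and 1 lower (6.8% and 7.75% of all genes). Of 15 proximal signalling genes 14 were measured in LMC-like and 13 in VSMC-like cells, with 0 higher in either. In VSMC-like cells 1, the sheddase gene Adam17, was lower, where 4.11% of all genes were higher and 13.0% lower. In neutrophil-like cells 3 of 11 signalling genes were higher, Adam17 among them (7.91% of all genes higher and 8.65% lower). In the edgeR comparison of stroma and phagocytes 22.2% of all genes were higher in the stroma and 17.3% in the phagocytes. Of 6 tested ligands 1 was higher in the stroma and 3 in the phagocytes. The counts were 1 and 7 of 12 receptors, 0 and 5 of 15 signalling genes, and 3 and 3 of 12 NF-kB targets.

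The tdT1 library had the highest Tnf of the 4 libraries in phagocytes, although its mice are not labelled as transgenic. In macrophage- and monocyte-like cells Tnf was at 90.7 CPM (65.7 to 122, 43 UMIs in 84 cells) in tdT1. It was at 13.7 CPM (11.9 to 15.8) in TNF-Tg, 4.19 (3.36 to 5.16) in WT, and 14.4 (5.28 to 31.3) in the tdT2 library. Of the 43 tdT1 UMIs 36 lay in 16 Lyve1-negative macrophage-like cells. Ear2 phagocyte-like and Cd209a dendritic cell-like cells of tdT1 had 178 CPM (138 to 226) and 238 CPM (183 to 305), against 8.84 and 26.1 CPM in WT. Nfkbia was at 981 CPM in the tdT1 phagocytes, and at 481 in TNF-Tg, 224 in WT and 204 in the tdT2 library. Over all macrophage, monocyte, dendritic and Ear2 classes of tdT1, Tnf was at 167 CPM in 86 cells with at most 10% mitochondrial UMIs and at 31.7 CPM (3 UMIs) in 44 cells above. Of those 44 cells 29 were Lyve1 macrophage-like, with 0 Tnf UMIs. Class and mitochondrial share cannot be told apart in this split. The part of cell stress, sorting and sequencing in this level was not tested. The stromal levels of Tnfrsf1a in tdT1, did not stand above WT in the same way, at 79.1 against 90.4 CPM in LMC-like cells and at 111 CPM in VSMC-like cells of both libraries.

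**Figure D5:**
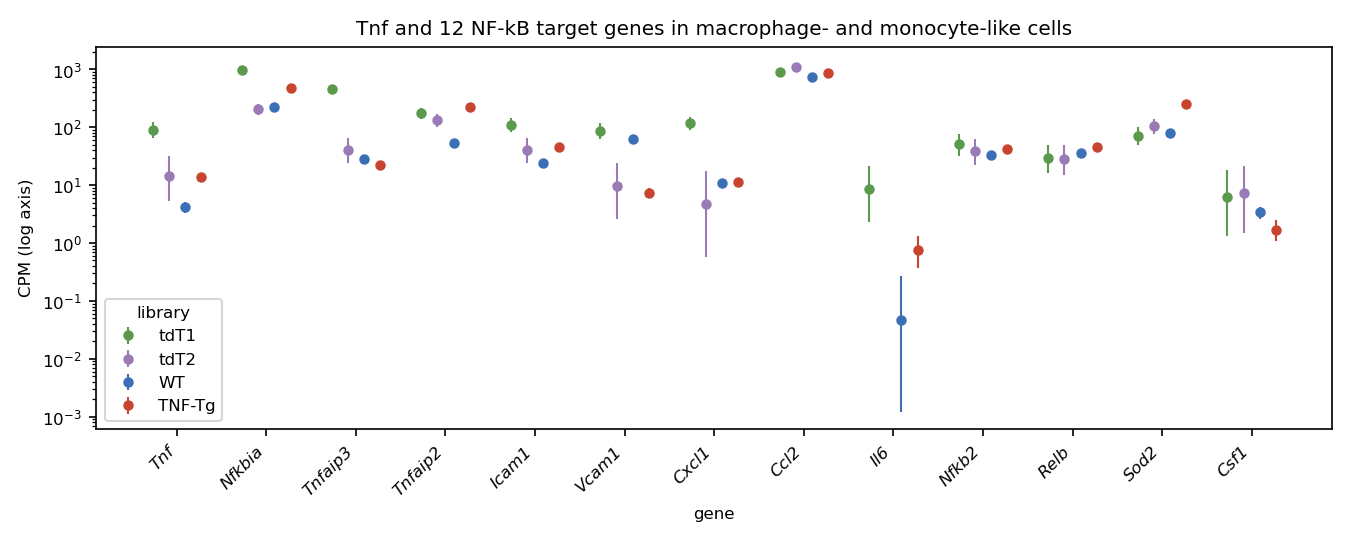
Tnf and 12 NF-kB target genes in the macrophage- and monocyte-like cells of each library, in CPM (log axis) with exact Poisson 95% intervals and no point where no UMI was counted. Tnf and Nfkbia are highest in tdT1 (90.7 and 981 CPM), ahead of TNF-Tg (13.7 and 481 CPM).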

How the data were processed

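Single-cell suspensions of popliteal lymphatic vessels with superficial saphenous veins gave 4 libraries, 1 each for WT and TNF-Tg and 2 of tdTomato+ sorted cells (tdT1, tdT2). The deposited values are whole-number UMI counts per gene and cell, made by the authors with Cell Ranger (3.1.0 in the matrix header of tdT1, 6.0.1 in the others), and the submitters' processing notes name mm10 and Seurat 4.0.3. The members and the gene lists were chosen with earlier results of these data known.

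Cells of all 4 libraries were integrated and clustered in Seurat 5.3.0 (R 4.3.3) on 1975 variable features, from which the 10 genes and the lists had been removed, with 30 dimensions at resolution 0.5. This gave 23 clusters of 10837 cells. Clusters were named from marker lists by a rule set after the clusters had been seen, and clusters 4, 7, 14 and 21 stayed unnamed. Predicted doublets (Scrublet in scanpy 1.11.5) were left out, 138 in WT, 72 in TNF-Tg, and 4 and 1 in the tdT1 and tdT2 libraries.

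UMIs were summed per class and library. Levels are UMIs scaled to the class total (CPM) with exact Poisson 95% intervals, cell shares carry Clopper-Pearson intervals, and ratios have exact conditional binomial intervals, all for counting error only. A count of 0 was read against a floor of 3 UMIs. A pair of gene and class was measured with 20 UMIs over both libraries and 20 cells in each, and called past 2-fold either way. Classes were tested on the summed counts with edgeR 4.0.16 (quasi-likelihood, TMM, filterByExpr, library as a block, Benjamini-Hochberg threshold 0.01), after a check on simulated data. Since nothing further separates the mice pooled in a library, p-values measure the spread between 4 libraries. All 10 genes were named, with at most 4 genes of each other list, those with the most UMIs in WT and TNF-Tg.

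The alternatives were doublets kept, dying cells removed, cells thinned to 3000 UMIs, a per-cell gate on markers (9633 cells gated, 83.2% of the named cells in the same class), clustering of WT and TNF-Tg alone, median-ratio scaling, RLE scaling, no low-count filter, DESeq2 1.42.0 and leaving out each library. Figures were drawn with matplotlib 3.10.9.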

Additional observations from a re-analysis of the deposited data

Results flagged for a closer look

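For 5 genes, classes differed in direction between the TNF-Tg and WT libraries, with log2 ratios of at least 0.5 in size both ways. Other genes, such as Tnfrsf1b and Tnfrsf11a, also differed in direction, as given above, and were not flagged. The differences between classes were not tested, since each condition is 1 library. The log2 ratio of TNF-Tg to WT of Tnf was 2.97 in neutrophil-like and -1.85 in gamma-delta T cell-like cells. That of Tnfrsf1a was 0.71 in LMC-like and -0.90 in neutrophil-like cells. That of Ltb was 2.93 in Cd209a dendritic cell-like and -1.35 in cycling cell-like cells, where 23 of 50 WT UMIs came from 1 cell. That of Ltbr was 0.63 in LMC-like and -1.19 in cycling cell-like cells, the latter from 45 WT and 9 TNF-Tg UMIs. In cycling cell-like cells it was 0.21 with WT and TNF-Tg clustered alone, so the opposite direction was lost there. With cells thinned to 3000 UMIs it was 0.65. The log2 ratio of Tnfsf12 was 0.73 in inflammatory monocyte-like and -2.19 in cycling cell-like cells, the latter from 40 WT and 4 TNF-Tg UMIs. In cycling cell-like cells it was -0.15 with thinned cells and -0.25 with the per-cell gate. The thinned values of Ltbr and Tnfsf12 rest on few UMIs and may be set by the floor of 3 UMIs.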

How the results depend on the processing

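The ratios of Tnf (2.77 to 3.02) and Ltb (1.80 to 1.93) in neutrophil-like cells and of Ltb in Cd209a dendritic cell-like cells (1.82 to 2.95) stayed past 2-fold in 6 of 6 settings. Pairs over 2-fold higher numbered 12 with doublets kept, 4 with cells thinned to 3000 UMIs and 11 with the per-cell gate, against 7. Pairs over 2-fold lower numbered 1 with thinned cells and 5 with the gate, against 8, and pairs either way 5 with thinned cells, against 15. The number of measured pairs and the share of all genes past 2-fold in these settings are not given here. The counts are therefore no result about the family. In thinned cells, a WT count of 0 set to 3 UMIs held Tnf and Ltb under 2-fold in inflammatory monocyte-like cells. In cycling cell-like cells the log2 ratio of Tnf was -1.65 with WT and TNF-Tg clustered alone. That of Ltbr was 0.21 with WT and TNF-Tg clustered alone and 0.65 with thinned cells, the latter from few UMIs. The cause was not tested. Genes called between stroma and phagocytes numbered 3134 with WT and TNF-Tg clustered alone, against 4809. With 1 library left out 4 to 6 genes of the family were called. The main run called 5 of the 8 tested, where 39.6% of all genes were called. The shares of all genes called between stroma and phagocytes with 1 library left out are not given here, so this range is no result about the family. Between LMC-like and VSMC-like cells, 855 to 1525 genes were called with 1 library left out, against 1620 (855 without WT and 1014 without TNF-Tg). Of the 10 genes 1 was called there, 3 with DESeq2, 2 with RLE scaling, 2 without the filter, 2 with the gate, 3 with WT and TNF-Tg clustered alone and 1 to 2 with 1 library left out. The shares of all genes called with DESeq2, RLE scaling, the gate, no filter or WT and TNF-Tg alone are not given here. Tnfrsf1b was called in 11 of 11 of these settings (edgeR or DESeq2 adjusted p 1.25e-06 to 0.00815). No paired analysis was possible because WT and TNF-Tg have 1 library each, and the class tests have the library as a block already. Depth limits Tnfsf11 and Tnfrsf11b, which had at most 40 UMIs in a library.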

Other observations

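TWEAK (Tnfsf12) and its receptor Fn14 (Tnfrsf12a) were both detected in part of the stromal cells. In TNF-Tg VSMC-like cells 20.3% of 482 cells held a UMI of both, where the product of the single shares is 15.8%, and in WT 17.2% against 12.7%. The TNF-Tg cells with a Tnfsf12 UMI had a median of 12085.5 UMIs and those without 4394.5, and the part of depth in the co-detection was not tested. In LMC-like cells the shares were 16.9% against 15.9% in WT and 16.7% against 14.5% in TNF-Tg. In tdT1 they were 16.3% against 13.1% in LMC-like and 10.0% against 7.03% in VSMC-like cells. In tdT2 they were 6.52% against 6.76% in LMC-like cells, below the product, and 5.15% against 4.25% in VSMC-like cells.

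The genes with the pattern most like each of the 10 genes were read as Pearson's r of log2(CPM + 1) over 43 sums of class and library, across 12567 genes, as a description in which sums of a library share their depth and preparation. The closest gene to Ltbr was Ifih1 (0.94), to Tnfrsf11a Sh3tc1 (0.94), to Ltb Tbc1d10c (0.91) and to Tnfrsf1a App (0.89). The closest gene to Tnfrsf1b was Bach1 (0.87), to Tnfsf12 Smad5 (0.87), to Tnf Gm5547 (0.79) and to Tnfrsf12a Thop1 (0.75). Among the genes closest to Tnfrsf1a was Ltbr (0.83), which lies near it on the chromosome.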
